A study of Mus musculus with 9 samples.

Results

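Lipid droplet and steatosis genes were 10 of the 32285 genes in the table of liver RNA-seq. They were chosen by name, with earlier results of these data known. They were the droplet coat genes Plin2, Plin4 and Plin5, the CIDE genes Cidea, Cideb and Cidec, the lipase gene Pnpla2 and its inhibitor gene G0s2, the triglyceride synthesis gene Mogat1, and Mttp, which serves lipid export. Each symbol matched 1 Ensembl identifier, and 8 of the 10 had a mean of at least 10 normalized counts over the 9 libraries and were tested among 12100 genes. Cidea and Mogat1 were below that level. On GRCm38, Plin2 lies at 86648386 to 86670060 of chromosome 4, Plin5 at 56111601 to 56117596 of chromosome 17, and Cidec at 113424634 to 113435760 of chromosome 6. Cideb lies at 55754050 to 55758458 of chromosome 14, Mogat1 at 78510991 to 78538173 of chromosome 1, and Mttp at 138089854 to 138144968 of chromosome 3. Cidec passed the filter through the Dox libraries, since its means were 5.5 in the control group and 9.4 in the Tc group.

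Lipid droplets store triglyceride in a core that is covered by a phospholipid layer and by coat proteins, among them the perilipins. Hepatocytes fill droplets when fatty acid supply and triglyceride synthesis exceed breakdown by lipases and export in very low density lipoprotein (VLDL), a state called steatosis. CIDE proteins enlarge droplets by passing lipid from one droplet to another, and in liver Cideb also takes part in loading lipid onto VLDL. Tetracycline-class drugs and tamoxifen are both known to cause fatty liver.

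The livers came from male Tet-OFF mice with a PB CAG-CreERT2 transgene, a Rosa26-LSL-tTA allele and a Rosa26-tetO-Venus-ires-mCherry allele, sampled in 3 groups of 3 libraries. The control group received tamoxifen alone, and the Dox and Tc groups received tamoxifen followed by doxycycline (Dox) hyclate or tetracycline (Tc) hydrochloride at 2 mg/mL in drinking water with sucrose for 7 days from 4 weeks of age. The study compared Tet-ON and Tet-OFF control of transgenes in adult tissues. Its liver RNA-seq asked how far each drug perturbs transcription in its own right. CAG drives the recombinase in most tissues, and tTA switches on the reporter until a drug is given, so that the drug and the loss of reporter expression cannot be told apart in these groups. Whether the control water held sucrose, and how much drug the mice drank, is not given in the sources used here. Dox and Tc share the tetracycline ring system and differ in the position of a hydroxyl group.

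Each library held 7426136 to 12183041 reads on genes. The labels number the libraries of a group and do not say that each came from its own mouse, while the methods speak of biological replicates and of independent samples. The p-values measure the spread between these libraries. In all 3 groups, library 3 could be fitted as a mixture of libraries 1 and 2. The weights were 58.4% and 41.7% in the control group, 61.3% and 34.5% in the Dox group, and 61.2% and 36.9% in the Tc group. Some genes were over 2-fold apart between libraries 1 and 2. Library 3 lay between them for 501 of 586 such genes in control, 4139 of 4264 in Dox and 962 of 1022 in Tc. The p-values from all 9 libraries, and from fits that leave out 1 library, are therefore too small, and the intervals too narrow. The tests of the members, and the calls of the pathway genes and cell markers, are also given without the 3 libraries numbered 3. Dox libraries 1 and 2 were far apart: 35.2% of the 12100 genes tested differed over 2-fold between them, against 4.84% between control libraries 1 and 2 and 8.45% between Tc libraries 1 and 2. In bulk liver RNA, fewer cells of a type and less RNA per cell cannot be told apart.

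The 250 bases upstream of the RefSeq start are shown for Pnpla2, G0s2, Plin4 and Cidec, the tested members whose Dox group mean was over 2 times the control mean. Cidec had 17 control reads in all and is shown as a low gene. Mogat1 also met that rule but was not tested, with 4 control reads in all, and its promoter is left out. The sequences are from RefSeq on GRCm38.p6 at chr7:141454938-141455187 (plus strand, Pnpla2), chr1:193273189-193273438 (minus strand, G0s2), chr17:56109783-56110032 (minus strand, Plin4) and chr6:113435761-113436010 (minus strand, the first of 2 Cidec starts). They are written 5′ to 3′ in lower case, and capitals mark a GC box (GGGCGG on either strand) or a TATA box core (TATAA).
Pnpla2: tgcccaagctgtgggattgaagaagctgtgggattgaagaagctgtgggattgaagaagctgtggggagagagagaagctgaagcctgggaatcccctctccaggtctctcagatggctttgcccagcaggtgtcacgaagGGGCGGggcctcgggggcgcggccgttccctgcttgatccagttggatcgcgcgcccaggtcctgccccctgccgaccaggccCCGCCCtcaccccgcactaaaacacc
G0s2: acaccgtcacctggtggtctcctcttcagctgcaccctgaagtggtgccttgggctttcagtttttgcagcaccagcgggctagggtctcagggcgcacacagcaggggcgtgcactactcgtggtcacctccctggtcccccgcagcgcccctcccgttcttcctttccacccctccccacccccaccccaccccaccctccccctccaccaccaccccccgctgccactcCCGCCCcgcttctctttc
Plin4: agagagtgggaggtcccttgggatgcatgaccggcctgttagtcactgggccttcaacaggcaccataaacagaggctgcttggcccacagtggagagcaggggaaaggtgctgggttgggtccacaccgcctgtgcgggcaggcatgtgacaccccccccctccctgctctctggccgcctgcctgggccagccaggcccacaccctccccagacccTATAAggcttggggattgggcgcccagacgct
Cidec: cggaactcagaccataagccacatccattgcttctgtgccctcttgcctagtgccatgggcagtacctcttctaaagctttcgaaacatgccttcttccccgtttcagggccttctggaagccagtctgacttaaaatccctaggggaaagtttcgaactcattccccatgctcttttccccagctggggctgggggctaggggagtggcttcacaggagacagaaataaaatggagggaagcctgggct
Pnpla2 had GC boxes that began 109 and 26 bases before the start, and G0s2 had 1 that began 18 bases before it. The GC box occurred in 32.7% of 32851 mouse promoters of this length. Plin4 had a TATA box core 32 bases before its start, and Plin5, its neighbour 1797 bases away on chromosome 17, had one 27 bases before its first start. Cideb had that core 172 bases before its start. The core occurred in 22.8% of promoters. GC boxes also began 144 bases before the Cideb start, 100 bases before the first Plin5 start, and 239 and 53 bases before the second. Neither motif was found in either Cidec promoter. Of the other motifs searched on both strands, the nuclear receptor half-site AGGTCA (14% of promoters) occurred in Plin2 and Plin5, and the glucocorticoid receptor half-site AGAACA (16.1%) in Mttp and at 2 places in Cideb. The direct repeat of AGGTCA with 1 base between its copies (0.0335%), the forkhead motif GTAAACA (3.17%), the E-box CACGTG (6.02%) and the cyclic AMP response element TGACGTCA (1.55%) occurred in none of the members' promoters searched, which left out Cidea. A match of letters is a description and does not show that a factor binds.

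In control liver, levels per kb of exon fell in the order Cideb, Mttp, Plin2, Pnpla2, Plin5, G0s2, Plin4, Cidec, Mogat1 and Cidea. Cideb, which is a liver-enriched CIDE gene, stood at 1030 normalized counts per kb and Plin4 at 7.48. No neighbours from Cideb down to Cidec overlapped in their 3 libraries, whereas Cidec, at 1.13 to 5.70 normalized counts per kb, overlapped Mogat1. The Tc group kept Cideb, Mttp, Plin2 and Pnpla2 as its first 4 genes in that order, and Mttp and Plin2 overlapped there. The Dox group was led by Pnpla2, at a mean of 1120 normalized counts per kb, but its libraries ranged from 308 to 2180 and overlapped those of Cideb, so the order of the first 6 genes in Dox liver was not resolved.

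Plin4 was the coat gene among the members that limma called higher with Dox. This perilipin, known from fat cells and muscle, lies on chromosome 17 at 56100591 to 56109803 of GRCm38. It had 40.2, 33.6 and 55.9 normalized counts in control libraries 1, 2 and 3, 99.0, 121.9 and 107.3 in the Dox libraries, and 57.6, 21.6 and 39.6 in the Tc libraries. Every Dox library lay above every control and Tc library, and Tc overlapped control. The limma log2 fold change of Dox against Control was 1.34 (SE 0.34, 95% interval 0.56 to 2.12), with a Benjamini-Hochberg adjusted p of 0.0473 over all genes tested. Without libraries 3 the estimate was 1.55 and the limma adjusted p 0.565. The adjusted p was also above 0.05 when control library 1, 2 or 3 was left out (limma adjusted p of 0.122, 0.158 and 0.0991), when Dox library 3 was (0.134), and when Tc library 3 was (0.0835). Plin4 overlaps Hdgfl2 on the opposite strand, which had a mean of 249.3 normalized counts. The libraries were made with a directional kit, but the strand setting of the counting is not given in the sources used here.

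Plin2, the perilipin that coats most droplets in hepatocytes, had the highest group mean of the 3 perilipins per kb in every group. It had 1598.4, 1641.1 and 1448.1 normalized counts in the control libraries, 2422.9, 1809.4 and 2098.3 in the Dox libraries, and 2074.1, 1543.1 and 2000.3 in the Tc libraries. All Dox libraries were above all control libraries, and the Tc range covered part of both. The log2 fold change of Dox against Control was 0.43 with a 95% interval of 0.05 to 0.80, and it did not pass the threshold (limma adjusted p = 0.131, and 0.669 without libraries 3). Without Dox library 2 the log2 fold change was 0.53 and the limma adjusted p 0.0402, with the change still under 2-fold. That fit kept Dox library 3, which lay between the other Dox libraries.

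Plin5, the perilipin that ties droplets to mitochondria, followed Dox library 2. Its 370.5, 268.9 and 390.3 normalized counts in control liver stood beside 325.4, 1114.6 and 527.9 in Dox liver and 223.6, 177.2 and 255.2 in Tc liver. Dox library 1 lay within the control range and Dox library 2 was 3.49 times the mean of control libraries 1 and 2. All Tc libraries were below all control libraries, but the log2 fold change of -0.65 for Tc against Control (95% interval -1.55 to 0.25) had a limma adjusted p of 0.589. For Dox against Control the log2 fold change was 0.76 (95% interval -0.14 to 1.67, limma adjusted p = 0.234). Without Dox library 1 it was 1.18, with a limma adjusted p of 0.0336, and without Dox library 2 it was 0.29, with a limma adjusted p of 0.443. Both fits kept Dox library 3, which lay between the other Dox libraries, so the smaller p-value is no support for a difference.

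**Figure D1:**
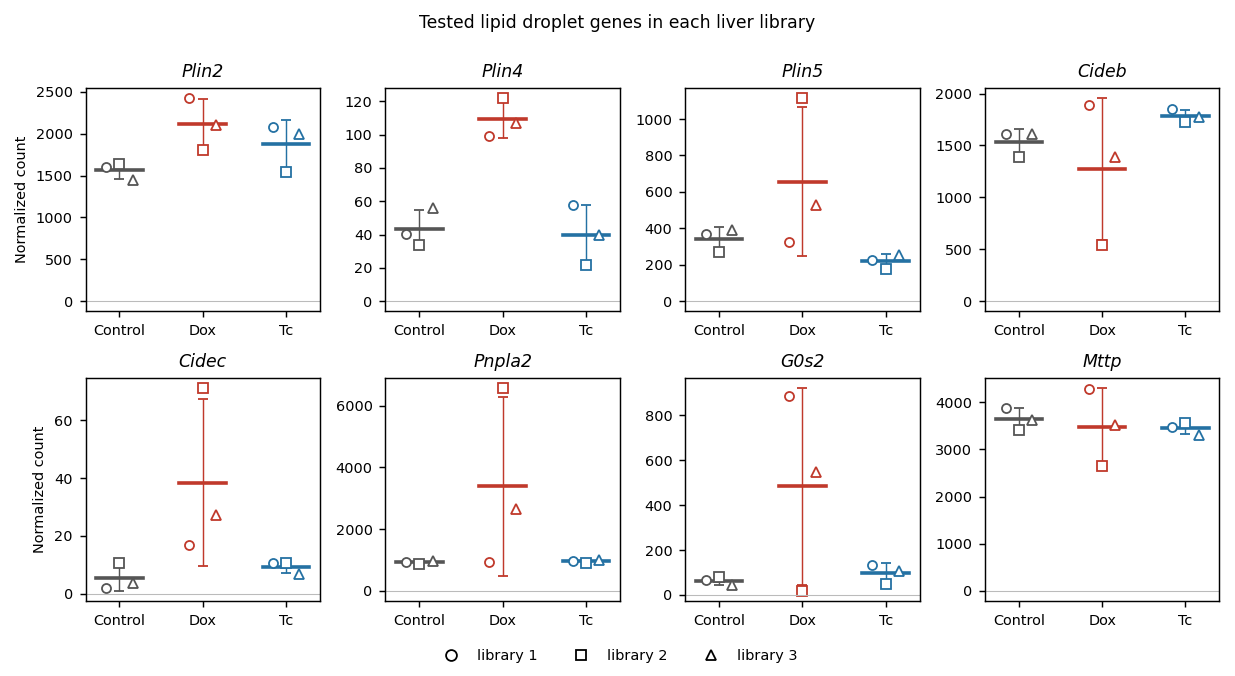
Normalized counts (linear axis from 0) of the 8 tested lipid droplet genes in control, Dox and Tc liver. Symbols are libraries 1, 2 and 3, thick lines are group means and thin bars are the SD (n = 3). Plin4 and Cidec are higher in all Dox libraries than in any other library. Plin5, Cideb, Cidec, Pnpla2 and G0s2 differ over 2-fold between Dox libraries 1 and 2.

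Of the CIDE genes, Cidec rose with Dox, Cideb differed among Dox livers, and Cidea was close to absent. Cidec enlarges droplets and is known from fat cells and fatty liver. It had 2.1, 10.6 and 3.8 normalized counts in the control libraries, 16.8, 71.3 and 27.3 in the Dox libraries, and 10.7, 10.8 and 6.7 in the Tc libraries. All Dox libraries were above all others, and Dox library 2 was the highest. These values rest on 17 control reads, 109 Dox reads and 31 Tc reads, and since Cidec reached the filter through the Dox libraries, its call is not independent of that filter. The limma log2 fold change of Dox against Control was 2.57 (SE 0.63, 95% interval 1.14 to 4.0, adjusted p = 0.0425), on the log2(normalized count + 1) scale that understates the change of a gene this low. With no filter on low values the limma adjusted p was 0.0502, and without libraries 3 the estimate was 2.58 with a limma adjusted p of 0.572. The limma adjusted p was also above 0.05 without control library 1, 2 or 3 (0.118, 0.0606 and 0.142), without Dox library 3 (0.118), and without Tc library 1, 2 or 3 (0.0619, 0.0619 and 0.0745).

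Cideb, whose protein acts both at droplets and in VLDL lipidation, had 1605.8, 1389.9 and 1610.8 normalized counts in control liver, 1888.0, 540.6 and 1391.8 in Dox liver, and 1848.5, 1724.8 and 1776.2 in Tc liver. Dox library 1 was the highest of the 9 libraries and Dox library 2 the lowest, 3.49-fold apart. The Tc libraries were all above the control libraries by a small margin, and the log2 fold change of Tc against Control was 0.22 with a 95% interval of -0.66 to 1.10 (limma adjusted p = 0.883). For Dox against Control it was -0.45 (95% interval -1.32 to 0.43, limma adjusted p = 0.468), and without Dox library 2 it was 0.08. Cideb overlaps Nop9 on the opposite strand, which had a mean of 234.7 normalized counts. Cidea, a gene of brown fat that also appears in severe steatosis, had 1 read in Dox library 2 and 0 reads in the other 8 libraries, and no fold is given.

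Pnpla2 and G0s2 were the tested members furthest apart between Dox libraries 1 and 2, and they moved in opposite directions there. Pnpla2 encodes adipose triglyceride lipase (ATGL), which cuts the first fatty acid from stored triglyceride, and G0s2 encodes a small protein that binds and inhibits it. Pnpla2, on chromosome 7 at 141455198 to 141460743, had 947.4, 883.8 and 981.5 normalized counts in control liver and 960.9, 908.3 and 1003.9 in Tc liver. In Dox liver it had 929.8, 6583.2 and 2662.2. Dox library 1 lay within the control range, and Dox library 2 was 7.19 times the mean of control libraries 1 and 2. G0s2, on chromosome 1 at 193272161 to 193273217, went the other way, with 887.7, 18.4 and 546.3 normalized counts in the Dox libraries against 64.6, 80.5 and 44.5 in control liver and 133.8, 46.8 and 106.1 in Tc liver. Dox library 1 was thus the highest and Dox library 2 the lowest of all 9, 48.2-fold apart.

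The ratio of Pnpla2 to G0s2 normalized counts was 14.7, 11 and 22.1 in the control libraries and 7.2, 19.4 and 9.5 in the Tc libraries. In the Dox libraries it was 1.0, 357.7 and 4.9, so that the lowest and the highest ratios both came from Dox liver, and Dox library 3 lay between Dox libraries 1 and 2 for both genes. With all 9 libraries, the limma log2 fold change of Dox against Control was 1.44 for Pnpla2 (95% interval 0.15 to 2.72, adjusted p = 0.137) and 1.76 for G0s2 (95% interval -1.06 to 4.58, limma adjusted p = 0.372). Leaving out 1 Dox library moved these values: without Dox library 1, Pnpla2 reached 2.16 with a limma adjusted p of 0.00796, and without Dox library 2, G0s2 reached 3.48 with a limma adjusted p of 0.00262. Without Dox library 2 the Pnpla2 estimate was 0.75, and without Dox library 1 the G0s2 estimate was 0.72. Without libraries 3 the limma adjusted p was 0.619 for Pnpla2 and 0.865 for G0s2. The fits without 1 Dox library kept Dox library 3, which lay between the other Dox libraries. Their spread is narrowed by the choice of library, and their small p-values are no support for a difference. For Tc against Control, Pnpla2 differed by a log2 fold change of 0.03 (95% interval -1.26 to 1.32) and G0s2 by 0.50 (95% interval -2.31 to 3.32), intervals that hold changes over 2-fold in either direction because all groups share 1 estimate of the spread. G0s2 overlaps Lamb3 on the opposite strand, which had a mean of 31.1 normalized counts.

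**Figure D2:**
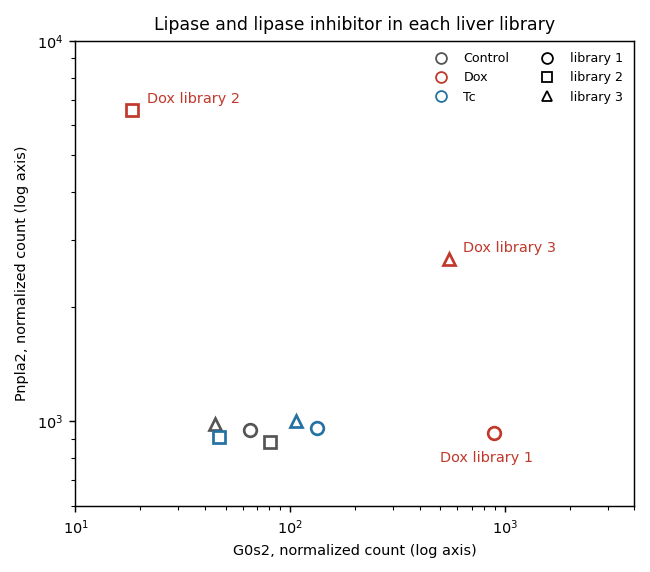
Normalized count of Pnpla2 against that of G0s2 in each library, both on log axes, with group by colour and library number by symbol. The 6 control and Tc libraries lie together between 883.8 and 1003.9 normalized counts of Pnpla2, Dox library 1 is far to the right at 887.7 for G0s2, and Dox library 2 is at the upper left with 6583.2 for Pnpla2 and 18.4 for G0s2.

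Mogat1 and Mttp, the members for triglyceride synthesis and export, showed no called difference. Mogat1, which joins a fatty acid to monoacylglycerol and is scarce in normal liver, had 0, 3.5 and 0 normalized counts in the control libraries, 6.3, 1.2 and 1.8 in the Dox libraries and 0, 0 and 2.5 in the Tc libraries. These are 4, 9 and 3 reads per group, too few to resolve a difference at this depth. Mttp, which loads lipid onto apolipoprotein B, had 3882.7, 3404.3 and 3629.8 normalized counts in control liver, 4285.6, 2642.2 and 3524.4 in Dox liver and 3470.5, 3568.3 and 3314.1 in Tc liver. Its groups overlapped, with Dox library 1 the highest and Dox library 2 the lowest of the 9. The log2 fold change was -0.09 for Dox against Control (95% interval -0.50 to 0.33) and -0.08 for Tc against Control (95% interval -0.49 to 0.34), and both intervals exclude a 2-fold change in the fit of all 9 libraries. Without libraries 3 they widened to -0.92 to 0.69 and -0.85 to 0.76. When each library was scaled to the same total, which moved the median of all genes by 0.17 for Dox against Control, the sign of the Dox difference for Mttp turned to 0.09.

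With all 9 libraries, limma called 2 of the 8 tested members for Dox against Control, at a fold change over 2 and an adjusted p under 0.05, where 5.0% of all tested genes were called. Leaving out Cidec, which reached the filter through the Dox libraries, limma called 1 of 7, and the median log2 fold change of the 7 was 0.76. It called 0 of 8 for Tc against Control, where 0.165% of all genes were called, and 0 of 8 for Dox against Tc, where 0.215% were. The median log2 fold change of the 8 tested members, Cidec included, was 1.05 for Dox against Control and 0.12 for Tc against Control, beside 0.00 for all genes in both. DESeq2 on the recovered reads of all 9 libraries called 4 of 8 for Dox against Control, adding Pnpla2 and G0s2 to Plin4 and Cidec, where it called 9.12% of all genes. It called 0 of 8 for Tc against Control (1.5% of all genes) and 4 of 8 for Dox against Tc (4.88%), which were Plin4, Plin5, Cidec and Pnpla2. Leaving out Cidec, DESeq2 called 3 of 7 for Dox against Control and 3 of 7 for Dox against Tc. The members were chosen with earlier results of these data known, so these counts and medians describe them and do not test them as a set.

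Without libraries 3, neither tool called a member in any comparison. DESeq2 then called 0.975%, 0.0826% and 0.264% of all genes for Dox against Control, Tc against Control and Dox against Tc. limma called 0 genes of all those tested in each comparison. Of the 12100 genes, 1040, 239 and 454 had an unadjusted limma p under 0.05. Among them were Plin4 and Cidec for Dox against Control and Plin4 and Plin5 for Dox against Tc. These p-values are not adjusted for the 12100 tests and are no support for a difference. For Dox against Control, libraries 1 and 2 of the groups did not overlap for 3 of the 8 members, all higher in Dox (Plin2, Plin4 and Cidec), where 39.7% of all genes did not overlap. Tc and control did not overlap for 3 members, with Cideb and Cidec higher and Plin5 lower in Tc, against 45.6% of all genes. Dox and Tc did not overlap for 3 members, all higher in Dox, against 32.1% of all genes. Cidec, which reached the filter through the Dox libraries, was among the 3 members in each comparison. The members' shares were thus near those of all genes.

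Dox and Tc were given at the same concentration and for the same time, and 8 members were compared between them. The limma log2 fold change of Dox against Tc was 1.54 for Plin4 (95% interval 0.76 to 2.32, adjusted p = 0.0957) and 1.41 for Plin5 (95% interval 0.51 to 2.31, limma adjusted p = 0.133). All 3 Dox libraries were above all 3 Tc libraries for both genes. The same held for Cidec, at 1.70 (95% interval 0.26 to 3.13, limma adjusted p = 0.184). Pnpla2 differed by 1.40 (95% interval 0.12 to 2.69) and G0s2 by 1.26 (95% interval -1.56 to 4.07), and in both the Dox libraries lay on both sides of a Tc library. For Plin2 the difference was 0.17 with a 95% interval of -0.20 to 0.55, for Mttp -0.01 with an interval of -0.43 to 0.40, and for Cideb -0.66 with an interval of -1.54 to 0.21. The intervals of Plin2 and Mttp leave no room for a 2-fold difference between the drugs in this fit, and the others do. Without libraries 3, the limma intervals widened to -0.48 to 0.93 for Plin2 and -0.87 to 0.74 for Mttp. Without Dox library 1, the limma adjusted p fell to 0.0301 for Plin4, 0.0165 for Plin5, 0.0484 for Cidec and 0.0122 for Pnpla2. Without Dox library 2 it was 0.0799 for Plin4, and the log2 fold change was 0.94 for Plin5 (limma adjusted p = 0.0837), 1.13 for Cidec (0.318) and 0.72 for Pnpla2 (0.277). G0s2 went from 0.22 without Dox library 1 (limma adjusted p = 0.9) to 2.98 without Dox library 2 (0.0123). These fits kept Dox library 3, which lay between Dox libraries 1 and 2 for each of these genes. Their small p-values are thus no support for a difference. With the replicate number as a block in Dox and Tc alone, limma called 0 of the 8.

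**Figure D3:**
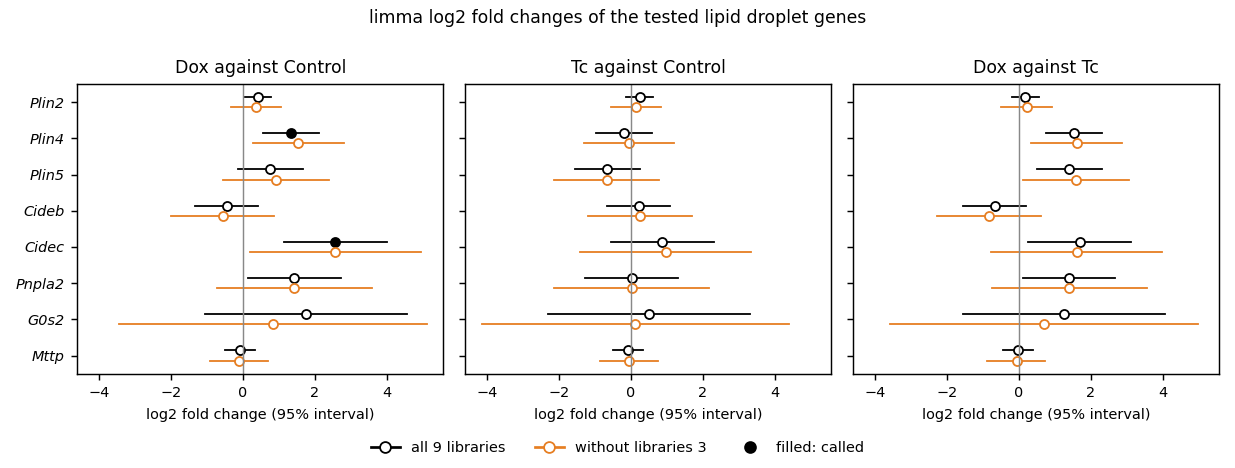
log2 fold changes (x axis, log2(normalized count + 1) scale) of the 8 tested members from limma, with 95% intervals, in 3 comparisons. Black is the fit of all 9 libraries and orange the fit without libraries 3, and filled points passed the threshold: Plin4 (1.34) and Cidec (2.57) for Dox against Control with all 9 libraries, and no point without libraries 3.

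Among the 8 tested members, 5 differed over 2-fold between Dox libraries 1 and 2 (Plin5, Cideb, Cidec, G0s2 and Pnpla2), 1 between control libraries 1 and 2 and 2 between Tc libraries 1 and 2. Of all genes tested, 35.2%, 4.84% and 8.45% did so in the Dox, control and Tc groups. Over the 6 libraries numbered 1 and 2, the Pearson correlation of log2 values was -0.97 between Pnpla2 and Cideb, 0.92 between Pnpla2 and Plin5 and -0.90 between Plin5 and Cideb. Cideb and Mttp correlated at 0.89, Plin2 and G0s2 at 0.77 and the neighbours Plin4 and Plin5 at 0.75. These values describe 6 libraries that share their groups, and Dox library 2 was the highest of them for Pnpla2 and Plin5 and the lowest for Cideb and Mttp. Of 9379 genes with a mean of at least 50, those most like Pnpla2 were Fiz1 and Bclaf1 (r = 0.999 for both), which had 419.9 and 1100.8 normalized counts in Dox library 2 against 177.8 and 493.3 in control library 1. Cideb was most like Mecr and Aars2 (r = 0.999 for both), Plin5 most like Wbp1l (0.996) and Rnf166 (0.995), and G0s2 most like Map3k7 (0.991) and Iffo2 (0.987). Plin2 was most like Cyp8b1 (0.996), a bile acid synthesis gene, and Eaf1 (0.993), Plin4 most like Phip (0.995) and Exoc5 (0.992), Cidec most like Usp42 (0.993) and Fat1 (0.991), and Mttp most like Slc6a13 (0.998) and Vps53 (0.989). Each r is the highest or next highest found among 9379 genes over 6 libraries. A high r after such a search does not show shared regulation.

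The other genes of these pathways were read from lists of 84 entries, of which 83 matched a symbol (Ldaf1 did not) and 79 were tested. These lists, too, were chosen with earlier results of these data known. limma called 7 of the 79 for Dox against Control, 5 higher and 2 lower, beside the 5.0% of all genes, and 0 of 79 in the other comparisons. DESeq2 with all 9 libraries called 15, 1 and 10 of the 79 for Dox against Control, Tc against Control and Dox against Tc, beside its 9.12%, 1.5% and 4.88% of all genes. In triglyceride synthesis, both tools called the same 4 of 14 tested genes for Dox against Control. Gpam, which adds the first fatty acid to glycerol phosphate at mitochondria, had 1741.3, 1657.0 and 1895.6 normalized counts in control liver, 4638.4, 4839.3 and 4537.0 in Dox liver and 3441.2, 2521.5 and 2882.1 in Tc liver. Its log2 fold change was 1.41 with Dox (95% interval 1.07 to 1.74, limma adjusted p = 0.00503) and 0.73 with Tc (95% interval 0.40 to 1.06, limma adjusted p = 0.117). The 2 Dox libraries that stood apart for Pnpla2 and G0s2 were thus alike for Gpam. Gpat4, an enzyme of the same step in the endoplasmic reticulum, rose by a log2 fold change of 1.02 (limma adjusted p = 0.0264), whereas Gpat3, its close relative, fell by 1.71 on the log2 scale, from 318.5 to 534.6 normalized counts in control liver to 113.5 to 132.3 in Dox liver (limma adjusted p = 0.0158). Lpin2, which makes diacylglycerol from phosphatidate, rose by 2.13 on the log2 scale (limma adjusted p = 0.0186), with 3945.5, 13847.3 and 7408.7 normalized counts in the Dox libraries against 1381.9 to 2036.6 in control liver. In Tc liver, Lpin2 had 2782.3 to 3278.1 (log2 fold change of Tc against Control 0.84, limma adjusted p = 0.461). Gpat4 had 2001.8 to 2824.1 there (0.60, limma adjusted p = 0.345), and all Tc libraries were above all control libraries for both genes. For Gpat3, Tc overlapped control (-0.46, limma adjusted p = 0.608).

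Of the droplet coat and formation genes, limma called 0 of 13 tested, and DESeq2 with all 9 libraries called Plin3 and Hilpda higher both for Dox against Control and for Dox against Tc. Plin3, a perilipin of many tissues that is named here after its values were seen, had 311.4 to 353.5 normalized counts in control liver, 421.2, 983.5 and 599.1 in Dox liver and 298.6 to 336.0 in Tc liver. All its Dox libraries were above all others, and the limma log2 fold change of Dox against Control was 0.92 (adjusted p = 0.0641), beside a DESeq2 adjusted p of 0.00971. Hilpda, a small inhibitor of ATGL, differed most for Dox (log2 fold change 2.05, 95% interval -0.30 to 4.39, limma adjusted p = 0.222), with 8.4, 243.9 and 80.9 normalized counts in the Dox libraries against 7.4 to 18.6 in control liver. Nsdhl, a sterol enzyme found on droplets, differed most for Tc, at 381.8, 661.9 and 453.1 normalized counts against 211.4 to 283.7 in control liver (log2 fold change 0.94, limma adjusted p = 0.724). Of the 11 lipolysis genes, limma called 0 and DESeq2 with all 9 libraries called Ces2a for Dox against Control. This carboxylesterase gene differed most for Dox (log2 fold change 1.28, limma adjusted p = 0.0972, DESeq2 adjusted p = 0.0163), and Ces1d for Tc (0.99, limma adjusted p = 0.18), with 4940.5 to 5836.6 normalized counts in the Tc libraries against 2432.9 to 2966.1 in control liver.

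Of the 9 VLDL genes, limma called 0 and DESeq2 with all 9 libraries called Apobec1, an RNA editing enzyme of apolipoprotein B, lower for Dox against Tc (DESeq2 adjusted p = 0.0418). Tm6sf2, which serves the lipidation of VLDL, was at 128.8 to 172.7 normalized counts in Dox liver against 207.0 to 313.3 in control liver (log2 fold change -0.82, limma adjusted p = 0.057), and Apobec1 differed most for Tc (0.63, limma adjusted p = 0.522). Of 12 genes for fatty acid uptake and binding, only Acsl4, which activates long-chain fatty acids, was called by limma with all 9 libraries. It had 384.8 to 430.8 normalized counts in control liver, 767.2 to 997.3 in Dox liver and 663.7 to 936.5 in Tc liver, log2 fold changes of 1.06 (limma adjusted p = 0.0114) and 0.95 (limma adjusted p = 0.0746). Lpl, a lipase of the vessel wall, had 499.1, 2492.7 and 1165.7 normalized counts in the Dox libraries against 384.0 to 457.3 in control liver (log2 fold change 1.42, limma adjusted p = 0.0952), and DESeq2 with all 9 libraries called it for Dox against Control (adjusted p = 0.00463) and for Dox against Tc.

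Of the 10 regulators, limma called 0 and DESeq2 with all 9 libraries called Ppargc1a for Dox against Control and for Dox against Tc. Ppargc1a, a coactivator of fasting genes, had 108.5, 1463.2 and 604.4 normalized counts in the Dox libraries against 82.3 to 204.3 in control liver (log2 fold change 1.80, limma adjusted p = 0.176, DESeq2 adjusted p = 0.00759). Srebf1, which drives fatty acid synthesis, had 8268.0, 579.8 and 5171.4 in the Dox libraries against 1362.3 to 2303.7 in control liver, and 3924.4 to 4329.0 in Tc liver (log2 fold change of Tc against Control 1.16, limma adjusted p = 0.652). The opposite order of Dox libraries 1 and 2 for Ppargc1a and Srebf1 was that of Pnpla2 and G0s2. Of the 10 tested PPAR-alpha targets outside droplets, limma called 2 for Dox against Control, and DESeq2 with all 9 libraries called those 2 and Angptl4, Cyp4a14 and Pdk4. Acot1, an acyl-CoA thioesterase, rose by 1.73 on the log2 scale (limma adjusted p = 0.0114), and Ehhadh, an enzyme of peroxisomal fatty acid oxidation, fell by 1.93 on the log2 scale (limma adjusted p = 0.0436). Ehhadh had 26959.5, 8136.5 and 17664.5 normalized counts in control liver, 3893.8 to 4451.0 in Dox liver and 2555.5 to 7392.8 in Tc liver. All Dox and all Tc libraries were thus below all control libraries. The limma log2 fold change of Ehhadh was -1.82 for Tc against Control (adjusted p = 0.214). For Dox against Tc it was -0.11 (limma adjusted p = 0.903). DESeq2 with all 9 libraries called Ehhadh lower for Tc against Control, as the only pathway gene called there. Pdk4, which restrains glucose oxidation, had 13.7, 1824.4 and 681.8 in the Dox libraries against 25.4 to 42.5 in control liver (log2 fold change 2.92, limma adjusted p = 0.228, DESeq2 adjusted p = 0.00292).

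Without libraries 3, DESeq2 called 3 of the 79 pathway genes for Dox against Control, Gpam, Lpin2 and Acot1, all of them higher, beside the 0.975% of all genes, and 0 of 79 in the other comparisons, and limma called 0. When each of the 9 libraries was left out in turn, Gpam stayed called by limma for Dox against Control in all 9 fits. Each of these fits kept libraries numbered 3, and without all of those the limma adjusted p of Gpam was 0.559. Acsl4 missed the call without control library 2 or 3 (limma adjusted p of 0.0541 and 0.0657) or Dox library 2 (a log2 fold change of 0.95). Acot1 missed it without control library 2 or 3 or Dox library 3 (limma adjusted p of 0.0522, 0.0613 and 0.0588), and Gpat3 without control library 1 or 3 or Dox library 3 (0.0556, 0.0728 and 0.072). Lpin2 missed it without any 1 control library or Dox library 3 (limma adjusted p of 0.0513 to 0.0804). Gpat4 and Ehhadh missed it without any 1 control library, Dox library 3 or Tc library 3, and Gpat4 also without Dox library 2, where its log2 fold change was 0.82. Between Dox libraries 1 and 2, 39 of the 79 differed over 2-fold, beside the 35.2% of all genes. Between Tc libraries 1 and 2, 13 did, beside 8.45% of all genes.

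**Figure D4:**
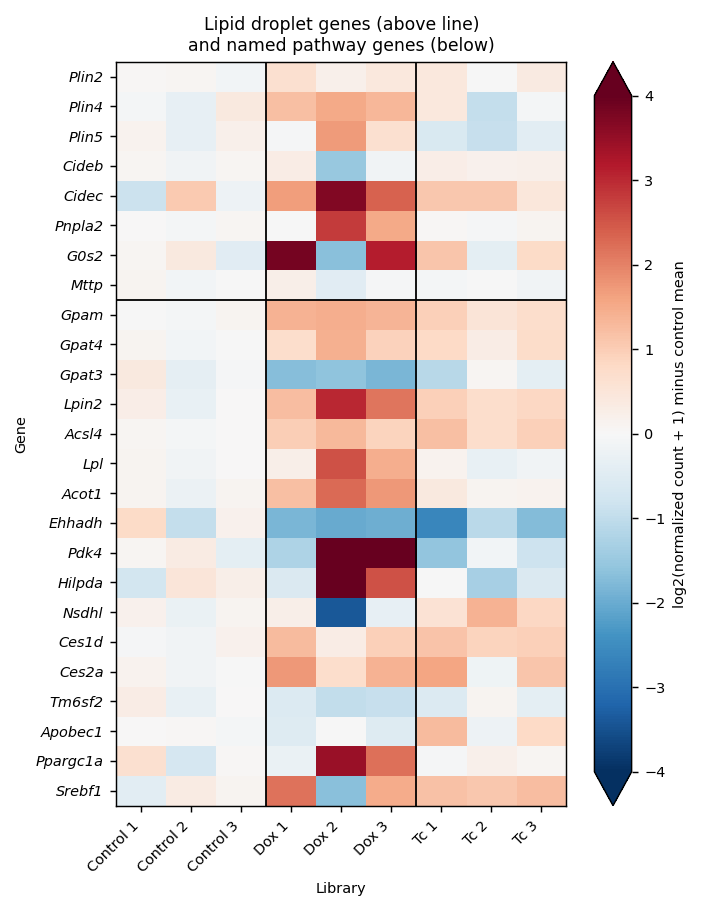
Colour gives log2(normalized count + 1) minus the control mean for each library (columns) and gene (rows), with the 8 tested members above the line and the named pathway genes below it; colours are saturated beyond 4. Plin4, Cidec, Gpam, Lpin2 and Acot1 are raised in all Dox libraries, whereas Pnpla2, Hilpda, Pdk4 and Ppargc1a are raised in Dox library 2 and G0s2 and Srebf1 in Dox library 1, with Dox library 3 between.

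The tissue label was checked against markers of liver and fat. Alb and the other 4 hepatocyte markers were abundant in every library, with summed levels of 1096057.6 to 1565396.2 normalized counts in control, 571170.6 to 784926.5 in Dox and 765726.6 to 1225285.7 in Tc liver. Most of that sum is Alb, whose Dox mean was 0.365 of the control mean, while the Dox mean was 4.82 times the control mean for Tat and 1.68 times for Cps1, and 0.948 of it for Ttr and 0.782 for Apoa1. limma called 0 of the 5, and DESeq2 with all 9 libraries called Alb lower and Tat higher with Dox. Several members are also genes of fat cells. Of 7 fat cell markers, Lep, Retn and Ucp1 were at 0 in all libraries, Adipoq and Plin1 stayed under 3 normalized counts, and the sum of the 7 was 52.1 to 61.4 in control, 54.8 to 65.6 in Dox and 40.0 to 54.7 in Tc liver. Stellate cell markers, from cells that hold retinoid droplets, summed to 2738.1 to 2963.6, 2013.3 to 3605.0 and 2625.2 to 2991.8 in the 3 groups. That sum joins unlike markers. Colec11 was at 159.2 to 173.7 in Dox against 305.1 to 319.4 in control liver, and Reln at 825.9 to 875.0 against 1037.7 to 1134.7. The rest overlapped control, and Dcn reached 2298.3 in Dox library 2. Both tools called 0 of the 6 stellate cell markers for Dox against Control. The 5 Kupffer cell markers summed to 5694.9 to 9403.4 in control, 1571.1 to 3769.5 in Dox and 2677.6 to 5475.6 in Tc liver, and limma called 2 of them lower with Dox, Clec4f and Adgre1, while DESeq2 called all 5. For Dox against Control with all 9 libraries, limma called 5.0% and DESeq2 9.12% of all genes. Without libraries 3, limma called 0 of the 5 Kupffer cell markers and DESeq2 called Clec4f, beside 0.975% of all genes. The part of this difference in cell markers in the values of the members was not tested.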

How the data were processed

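RNA from mouse liver was sequenced in 3 groups of 3 libraries. Per the labels and the methods, the authors trimmed the reads with cutadapt, aligned them to mm10 with STAR 2.7.11ac, counted them with HTSeq 2.0.5 and normalized with DESeq2 1.42.0. The deposited signal is a normalized count, in which the reads of a library are scaled by its size factor. Of 32285 identifiers, 32158 had a symbol. Whole reads were recovered for 100% of values (tolerance 0.01), giving 7426136 to 12183041 reads per library. Since the deposited values are normalized, log2(normalized count + 1) was tested with limma 3.58.1 in R 4.3.3 (trend, 1 model of all 9 libraries, p-values adjusted by Benjamini-Hochberg across the 12100 genes whose mean was at least 10). A gene was called at a fold change over 2 and an adjusted p under 0.05. DESeq2 1.42.0 and edgeR 4.0.16 on the recovered reads, other pseudocounts, filters and scalings, and fits without single libraries or without libraries 3 were alternatives. The code was tested on simulated data.

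The members, lists and alternatives were chosen with earlier results of these data known. Named pathway genes were all those called and, per list, the gene with the largest change for each drug. Genes most like a member were the pair with the highest correlation to it. Deviations from the group mean were correlated between Dox and Tc libraries of the same number (r = 0.29, 0.32 and 0.18), while control libraries did not pair with either (-0.08 to 0.06). The numbers in the labels are the only basis for a pairing. With libraries 3 fitted as mixtures of the others, these 3 values are not independent. Gene coordinates are from GENCODE on GRCm38, and promoters from RefSeq. Promoters and coordinates of genes on chromosome 18 were not used here.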

Additional observations from a re-analysis of the deposited data

How the results depend on the processing

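The count of 2 members called for Dox against Control became 0 with no filter on low values or a mean of at least 50, 1 with the 2 groups compared alone, 1 with the replicate block over all 9 libraries (whose control libraries share only a number), 4 with DESeq2 and 0 without libraries 3 by limma or DESeq2. Without single libraries it ranged from 0 to 4. The 0 members called for Dox against Tc became 4 with DESeq2 and ranged from 0 to 4 without single libraries. The 7 pathway genes called for Dox against Control became 15 with DESeq2, 4 with the 2 groups compared alone, 0 without libraries 3 by limma, 3 by DESeq2, and 1 to 14 without single libraries. For Tc against Control, 0 became 1 with DESeq2 and with the 2 groups alone, and ranged from 0 to 1 without single libraries. For Dox against Tc, 0 became 10 with DESeq2 and ranged from 0 to 13. With the replicate block in Dox and Tc alone, 0 members and 0 pathway genes were called, as without it. The labels give only the numbers, so this block is not a known pairing. The cause of these differences was not tested, beyond the fewer libraries or genes in some fits. The other alternatives kept the counts within 1.5 times. Scaling to the same total changed the split of all genes called for Dox against Control from 138 higher and 467 lower to 245 and 326, and those called for Dox against Tc from 26 to 3. Depth limits Cidea, Mogat1 and Cidec, and intervals from counting error are not given, since the libraries differ by more.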
